A study of Mus musculus with 12 samples.

Results

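The genes described here are 10 genes that mark or drive the passage of cells between an epithelial and a mesenchymal state, the epithelial-mesenchymal transition (EMT). They were chosen by name as a functional group, and no measured value enters the rule, though earlier results of these data were known when they were chosen: the cadherins Cdh1 and Cdh2, the adhesion molecule Epcam, the mesenchymal products Vim and Fn1, and the transcription factors Snai1, Snai2, Zeb1, Zeb2 and Twist1. All 10 were found among the 38924 genes of the count tables. They were measured by RNA-seq in 12 pancreatic neuroendocrine tumors (PanNETs) of C57Bl6 RIP1Tag2 mice. Of these, 4 came from control mice given saline, 4 from mice given sunitinib, which inhibits the receptors of VEGF and PDGF, and 4 from mice given rapamycin, an mTOR inhibitor, plus sunitinib (R+S). Mice were 15.5 weeks old at the first dose, per the labels, and treatment went on for 4 days. All 3 groups carry the RIP1Tag2 transgene, in which the rat insulin promoter drives the SV40 T antigens in beta cells. No group is a normal-tissue control. A tumor piece can also hold other cells, whose markers are given below.

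Epithelial cells hold to each other through E-cadherin, whose cytoplasmic tail binds catenins and through them actin, and EPCAM is a second adhesion protein of simple epithelia. In EMT, Snail, Slug, the ZEB proteins and Twist lower E-cadherin and other junction genes, acting through E-boxes in the DNA, while vimentin filaments, fibronectin and often N-cadherin increase. In pancreatic islets the picture differs from that of a squamous or ductal epithelium, because normal beta cells carry E-cadherin and N-cadherin side by side, and loss of E-cadherin is known to accompany the invasive stage of RIP1Tag2 tumors.

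The reads assigned to genes numbered 31872342 to 44215054 per tumor. Each tumor was a piece of bulk tissue, so fewer cells of a type and less RNA per cell cannot be told apart. Markers of other cell types moved with the groups. The summed level of 28 acinar genes was 49.5 to 156 CPM (reads on a gene scaled to a common library total) in control tumors, 13000 to 46300 after sunitinib and 3480 to 19400 after R+S, and 4 of the 28, Prss1 and Prss3 among them, had no read in any control tumor. That of 16 endothelial genes was 689 to 906, 80.5 to 122 and 154 to 198 CPM in the same order, with none at 0. The label prefixes are shared by tumors within a group and never between groups: 1 prefix covers all 4 control tumors, 1 covers sunitinib tumors 5, 6 and 8, and 1 covers R+S tumors 5 and 7. What a prefix marks, such as a mouse, a litter or a batch, is not given by the labels. Whatever it marks cannot be told apart from treatment, and if tumors of a prefix share a mouse, the p-values below are too small.

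Sunitinib tumor 6 stood apart. The summed level of 16 beta-cell genes was 13900 CPM there and 47100 to 95800 CPM in the other 11 tumors. Of its defining markers, Pdx1, a beta-cell transcription factor, was at 4.17 CPM against 155 to 442, and Ins2, an insulin gene, at 784 against 10600 to 43800 in the other 11. Chga, a general endocrine secretory-granule gene, was at 2850 CPM against 2580 to 4720. A list of 8 hepatocyte genes summed to 6800 CPM there and to 33.7 to 265 CPM elsewhere, chiefly through Ttr, a transthyretin gene that islet alpha cells also express, at 6360 CPM, while Alb, the albumin gene, was at 272 CPM against 0.353 to 1.64. Of the 16 beta-cell genes, 12 were lowest of the 12 tumors there, and the other 4, Chga, Chgb, Pcsk1 and Pcsk2, lay inside the range of the remaining tumors. The member results that rest on this tumor are given with and without it.

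In control tumors the epithelial genes were the most abundant of the 10. Levels between genes were compared as CPM per kilobase of exon. Epcam stood at 52.2 ± 12.1 (SD, n = 4), above 95.8% of tested genes, and Cdh1 at 45.9 ± 13.1, above 94.9%. The ranges of the 2 overlapped. Cdh2 followed at 14.3 ± 2.14, below every control value of Cdh1, and its range overlapped those of Vim at 14.0 ± 2.69 and Fn1 at 11.4 ± 5.36. Among the transcription factors, Zeb1 was highest at 4.59 ± 0.728, with no overlap with Fn1 above it or Snai2 below it. Snai2 at 1.18 ± 0.314, Snai1 at 1.08 ± 0.212 and Zeb2 at 0.968 ± 0.188 overlapped with their neighbors in that order, and Twist1 was lowest at 0.156 ± 0.108, above 5.87% of tested genes. With the length of the longest coding transcript in place of all exons, Vim moved above Cdh2 and Zeb2 above Snai2.

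None of the 9 genes that could be tested passed the threshold of 0.05 on the adjusted p of the quasi-likelihood test in edgeR. This was 0 of 9 in sunitinib versus control, where 4.48% of all 16645 tested genes passed, 0 of 9 in R+S versus control, where 4.16% passed, and 0 of 9 in R+S versus sunitinib, where 7.21% passed. At an unadjusted p under 0.05 there was 1 of the 9 in each comparison, Snai1, Snai1 again, and Cdh2, beside 19.5%, 20.1% and 30.4% of all tested genes. DESeq2 called 0 of the 9, then 1 (Snai1), then 1 (Cdh2). It also called more of all genes than edgeR did in each comparison, with the counts given in the closing section. DESeq2 started from every gene with a read, so the shares above are not its background, and its own shares are not given here. The median log2 fold change of the 9 was -0.09, 0.24 and -0.11 in the 3 comparisons, beside 0.03, 0.01 and -0.03 over all tested genes. Twist1 was removed by the filter on low counts, with 1 to 18 reads per tumor. The comparisons share tumors, so they are not independent of each other.

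**Figure D1:**
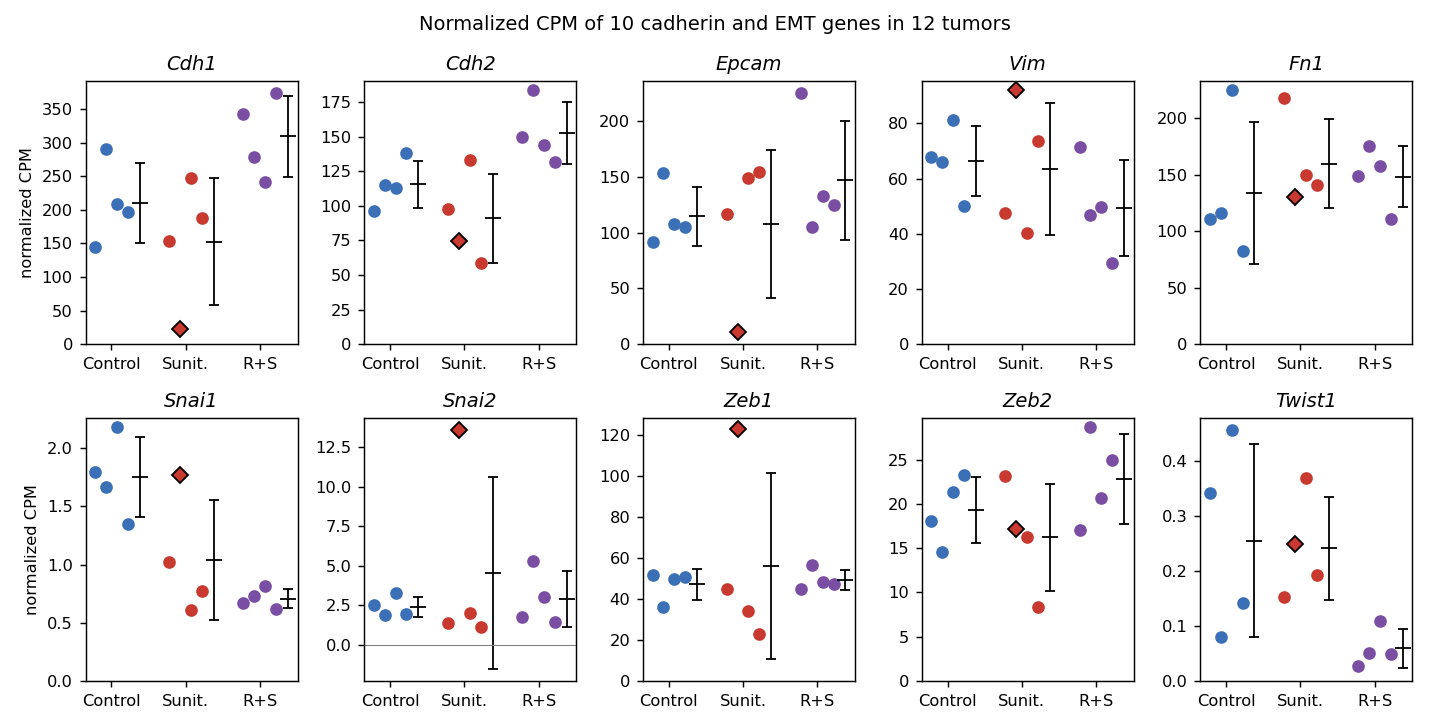
Normalized CPM (linear vertical axes from 0 except where an SD bar runs below 0) of the 10 genes in each of the 12 tumors by group, with the group mean and SD beside the points. The outlined diamond is sunitinib tumor 6, which is the lowest of 12 for Cdh1 and Epcam and the highest for Vim, Snai2 and Zeb1, and for Snai1 the 4 R+S tumors, at 0.619 to 0.816 CPM, lie below the 4 control tumors.

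Cdh1 (chr8:106603351-106670246 on the plus strand, GRCm38) encodes E-cadherin. Its normalized level was 145, 290, 209 and 196 CPM in control tumors 1 to 4, 153, 22.8, 247 and 188 CPM in sunitinib tumors 5, 6, 8 and 12, and 342, 279, 242 and 374 CPM in R+S tumors 4, 5, 7 and 10. The R+S tumors lay toward the high end, with 2 of 4 above every control tumor and 3 of 4 above every sunitinib tumor, and sunitinib tumor 6 was far below all others. The log2 fold change of R+S versus sunitinib was 1.02 (SE 0.51, adjusted p = 0.195 by edgeR; 95% interval -0.09 to 2.13), and the two-sided exact permutation test gave p = 0.0571, where 4 against 4 tumors cannot go below 0.0286. Without tumor 6 that difference was 0.66. R+S versus control was 0.56 (SE 0.50, adjusted p = 0.569), and sunitinib versus control was -0.46 (SE 0.50, adjusted p = 0.647), which became -0.10 without tumor 6.

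Epcam (chr17:87635979-87651129, plus strand) encodes the epithelial cell adhesion molecule. Control tumors had 91.8, 153, 108 and 105 CPM, sunitinib tumors 117, 10.8, 149 and 154 CPM, and R+S tumors 225, 105, 133 and 125 CPM, with tumors in the order given for Cdh1. All 3 groups overlapped, and 3 of 4 sunitinib tumors lay within or just above the control range while tumor 6 was far below it. The log2 fold change of sunitinib versus control was -0.09 (SE 0.57, adjusted p = 0.946; 95% interval -1.32 to 1.15) and turned to 0.29 without tumor 6. That interval reaches past 1 on the log2 scale in both directions, so a doubling or a halving of Epcam was not detectable with tumor 6 included.

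The 250 bases ahead of the Epcam start hold the hexamer that Snail and ZEB proteins are known to bind, and are shown for that reason together with those of Snai1, whose own product is known to bind its promoter. Both sequences are RefSeq promoters on GRCm38.p6, written 5′ to 3′ on the plus strand, with CACCTG or its complement CAGGTG in capitals. Both strands were searched by searching for both forms.
Epcam chr17:87635729-87635978: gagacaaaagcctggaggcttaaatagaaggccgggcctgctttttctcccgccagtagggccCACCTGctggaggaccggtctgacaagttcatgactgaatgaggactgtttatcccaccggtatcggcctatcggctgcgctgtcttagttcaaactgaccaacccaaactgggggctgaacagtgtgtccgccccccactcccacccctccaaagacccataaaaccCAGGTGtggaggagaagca
Snai1 chr2:167537945-167538194: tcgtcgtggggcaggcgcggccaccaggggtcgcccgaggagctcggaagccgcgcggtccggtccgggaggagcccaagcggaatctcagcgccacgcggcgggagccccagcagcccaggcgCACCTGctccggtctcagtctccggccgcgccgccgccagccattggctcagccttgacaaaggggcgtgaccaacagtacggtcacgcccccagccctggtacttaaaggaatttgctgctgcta
The Epcam window has matches beginning 187 and 19 bases before the start, and the Snai1 window has 1, beginning 126 bases before it. Of 32851 promoters of the same length, 17.2% hold at least 1 match, and 66.2% hold the general E-box CANNTG. The windows of Vim, Twist1 and the 4 starts of Zeb2 hold no match to the hexamer. Those of Cdh1, Cdh2, Fn1, Snai2 and Zeb1 were not read. A match is a description of the letters and not a site of binding, and binding was not measured in these tumors.

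Cdh2 (chr18:16588877-16809246, minus strand) encodes N-cadherin. It stood at 96.0, 115, 113 and 138 CPM in control tumors, 97.7, 74.7, 133 and 59.0 CPM in sunitinib tumors, and 150, 184, 144 and 132 CPM in R+S tumors. In R+S, 3 of 4 tumors were above every control tumor and 3 of 4 above every sunitinib tumor, with R+S tumor 10 at 132 CPM just below sunitinib tumor 8 at 133 CPM. R+S versus sunitinib gave a log2 fold change of 0.74 (SE 0.22, adjusted p = 0.0615 by edgeR; exact permutation p = 0.0571), the largest difference of the 9 tested genes relative to its SE in that comparison. DESeq2 put the same difference at an adjusted p of 0.0264, and leaving out sunitinib tumor 8 gave 0.99 (adjusted p = 0.0358). R+S versus control was 0.40 (SE 0.22, adjusted p = 0.334), and sunitinib versus control was -0.34 (SE 0.22, adjusted p = 0.425).

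Transcripts of both cadherins were present in every tumor, and their balance was read as the ratio of CPM per kilobase of Cdh1 to that of Cdh2. Control tumors ranged from 2.51 to 4.47 and R+S tumors from 2.66 to 5.00. In sunitinib tumors it ran from 0.538 to 5.63, with tumor 6 at the low end. Tumor 6 was the only 1 of the 12 with less Cdh1 than Cdh2 on this scale. The ratio of Epcam to Vim per kilobase showed the same tumor apart, at 0.254, against a control range of 2.88 to 5.00 and an R+S range of 4.81 to 9.20.

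Vim (chr2:13573927-13582826, plus strand) encodes vimentin, the intermediate filament of mesenchymal cells. Its level was 68.0, 66.1, 81.1 and 50 CPM in control tumors, 47.5, 92.2, 40.4 and 73.5 CPM in sunitinib tumors, and 71.5, 46.9, 49.6 and 29.3 CPM in R+S tumors. R+S had 3 of 4 tumors below every control tumor, while sunitinib tumors lay on both sides of the control range. The log2 fold changes were -0.06 (SE 0.30) in sunitinib versus control and -0.43 (SE 0.30) in R+S versus control, with adjusted p of 0.924 and 0.454. R+S versus sunitinib was -0.36 (SE 0.30, adjusted p = 0.429).

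Fn1 (chr1:71585520-71653200, minus strand) encodes fibronectin, a glycoprotein of the extracellular matrix. It was measured at 111, 116, 225 and 82.0 CPM in control tumors, 218, 130, 150 and 141 CPM in sunitinib tumors, and 149, 175, 158 and 111 CPM in R+S tumors. The control tumors alone spanned nearly the whole range, from 82.0 to 225 CPM. The log2 fold changes were 0.26 (SE 0.29) and 0.15 (SE 0.29) in sunitinib and R+S versus control, and -0.11 (SE 0.29) in R+S versus sunitinib, with adjusted p from 0.648 to 0.824. Vim and Fn1 are also made by fibroblasts, pericytes and endothelial cells. A list of 16 fibroblast, pericyte and smooth muscle genes summed to 907 to 1740 CPM in control tumors, 1060 to 1330 after sunitinib and 752 to 1240 after R+S, and its part in the values of Vim and Fn1 was not tested.

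**Figure D2:**
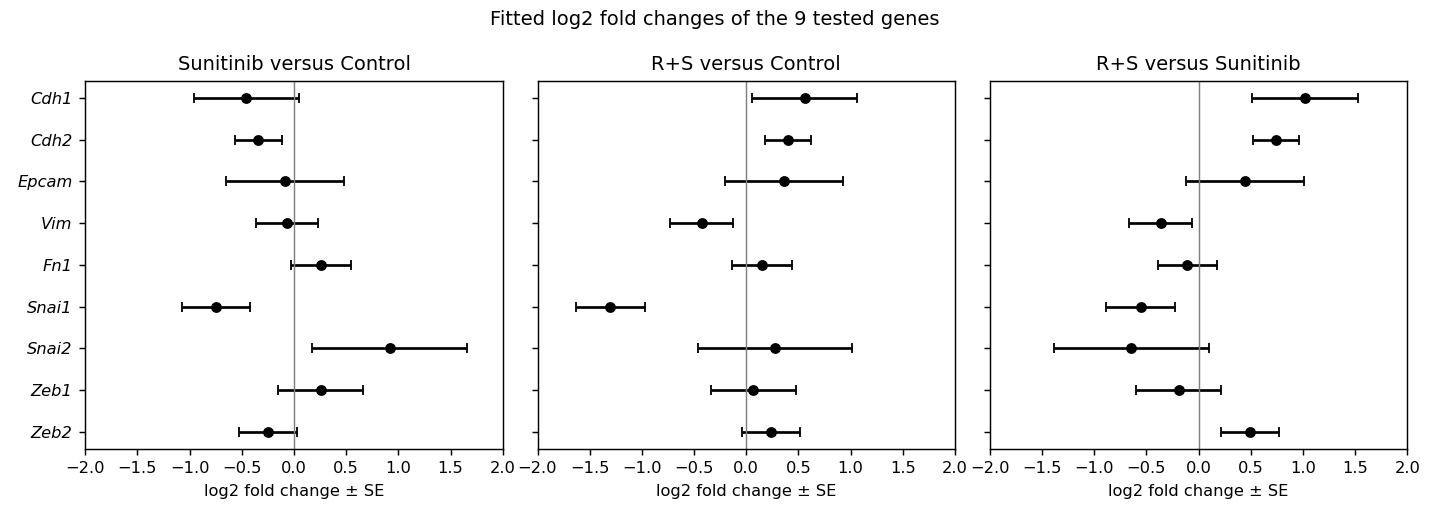
Fitted log2 fold changes (horizontal axis) of the 9 tested genes in the 3 comparisons, as points with bars of 1 SE. The estimate furthest from 0 is that of Snai1 in R+S versus control, at -1.30, and the widest bars are those of Snai2, with an SE of up to 0.74.

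Snai1 (chr2:167538195-167542814, plus strand) encodes Snail, a zinc-finger repressor of E-cadherin. It was a low gene, with 23 to 86 reads per tumor. Control tumors had 1.80, 1.67, 2.18 and 1.35 CPM, sunitinib tumors 1.02, 1.77, 0.607 and 0.770 CPM, and R+S tumors 0.666, 0.732, 0.816 and 0.619 CPM. Every R+S tumor lay below every control tumor, as did 3 of 4 sunitinib tumors, with tumor 6 inside the control range. Of all tested genes, 11.9% were likewise lower in R+S than in control without overlap.

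The log2 fold change of Snai1 in R+S versus control was -1.30 (SE 0.33; 95% interval -2.03 to -0.58), with an adjusted p of 0.0502 by edgeR, just above the threshold, and an exact permutation p of 0.0286, the smallest that 4 against 4 tumors allow. The call was on the edge: of 21 alternatives, 11 put the adjusted p under 0.05, DESeq2 with 0.00355 included, and it ran up to 0.156. Leaving out any 1 control or R+S tumor gave an adjusted p of 0.0775 to 0.156, the latter without control tumor 3, and leaving out a sunitinib tumor gave 0.00986 to 0.0569. The log2 fold change stayed between -1.41 and -1.18 in all 21. Sunitinib versus control was -0.75 (SE 0.33, adjusted p = 0.233), and without tumor 6 it was -1.13 (adjusted p = 0.0359), so that tumor decided the call. R+S versus sunitinib was -0.56 (SE 0.33, adjusted p = 0.274), and the treated groups overlapped. The drop in endothelial markers runs alongside: Cdh5, the cadherin of endothelial cells, was lower by 2.92 on the log2 scale after sunitinib and by 1.92 after R+S, and whether part of the Snai1 signal comes from vessels was not tested.

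Snai2 (chr16:14705852-14709385, plus strand) encodes Slug, a relative of Snail. It stood at 2.50, 1.88, 3.25 and 1.94 CPM in control tumors, 1.40, 13.6, 2.01 and 1.12 CPM in sunitinib tumors, and 1.78, 5.33, 3.05 and 1.44 CPM in R+S tumors. Tumor 6 was the highest of the 12 and 9.67 times the median of the other 3 sunitinib tumors, and R+S tumor 5 was the next highest. With this spread the log2 fold change of sunitinib versus control was 0.92 (SE 0.74, adjusted p = 0.523), and it turned to -0.66 (adjusted p = 0.435) without tumor 6. R+S versus control was 0.28 (SE 0.74, adjusted p = 0.873).

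The proportion of the related factors varied less in control tumors, which share a prefix, than in treated ones. The ratio of Snai2 to Snai1 per kilobase was 0.904 to 1.19 in the control tumors, 1.10 to 6.15 in sunitinib tumors and 1.86 to 5.84 in R+S tumors. Sunitinib tumors 5 and 12, at 1.10 and 1.17, lay inside the control range. Snai1 had 48 to 86, 23 to 64 and 24 to 30 reads in the 3 groups in that order, and the part of counting error was not tested. Each R+S tumor was thus above each control tumor, and how often other pairs of genes do so was not examined. In 3 of the 4 R+S tumors, Snai1 was below every control tumor while Snai2 was inside or below the control range. The difference in the ratio was not tested.

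Zeb1 (chr18:5591860-5775467, plus strand) and Zeb2 (chr2:44983632-45117395, minus strand) encode zinc-finger homeodomain repressors. Zeb1 was at 51.7, 36, 50 and 50.8 CPM in control tumors, 44.8, 123, 34.3 and 22.7 CPM in sunitinib tumors, and 44.9, 56.5, 48.5 and 47.5 CPM in R+S tumors. Control and R+S tumors were close together, and the sunitinib group held both the highest tumor, 6, and the lowest, 12. Sunitinib versus control was 0.26 (SE 0.41, adjusted p = 0.758) and turned to -0.47 (adjusted p = 0.243) without tumor 6, and R+S versus control was 0.07 (SE 0.41, adjusted p = 0.949).

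Zeb2 was at 18.1, 14.6, 21.3 and 23.2 CPM in control tumors, 23.1, 17.1, 16.3 and 8.34 CPM in sunitinib tumors, and 17.0, 28.7, 20.6 and 24.9 CPM in R+S tumors. The groups overlapped, with sunitinib tumor 12 lowest and tumor 6 in the middle of its group. The log2 fold changes were -0.25 (SE 0.28) and 0.24 (SE 0.28) versus control, with adjusted p of 0.652 and 0.669, and 0.49 (SE 0.28, adjusted p = 0.25) in R+S versus sunitinib. Zeb2 stayed below Zeb1 in every tumor, at 0.0715 to 0.27 times its level per kilobase. Genes on the opposite strand overlap Cdh2, Fn1, Zeb1 and Zeb2. The libraries keep strand, and whether the counting used it is not stated in the sources used here.

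Twist1 (chr12:33957671-33959829, plus strand) encodes a basic helix-loop-helix factor of mesoderm and neural crest. It had 16, 3, 18 and 5 reads in control tumors, 6, 9, 14 and 6 in sunitinib tumors and 1, 2, 4 and 2 in R+S tumors, where a count of 0 would allow up to 3 reads. In CPM this was 0.0794 to 0.457, 0.153 to 0.369 and 0.0277 to 0.109. The R+S tumors overlapped the control tumors and lay below the sunitinib tumors. The share of all genes that lay so against sunitinib is not given here. Counting error alone is large at these read numbers, and no fold is given. A fit without the filter on low counts put the adjusted p at 0.121 for R+S versus control and 0.103 for R+S versus sunitinib.

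**Figure D3:**
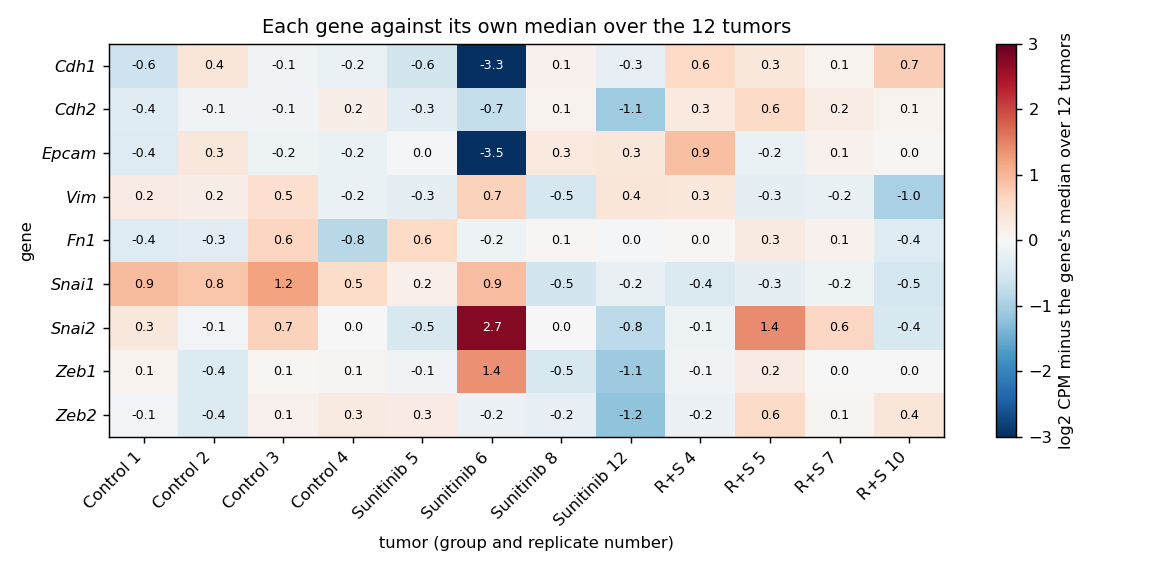
Log2 CPM of the 9 tested genes (rows) in the 12 tumors (columns), each minus the gene's median over the 12, with the difference printed in each cell and red for above and blue for below. Sunitinib tumor 6 has the deepest blue for Cdh1 and Epcam and the deepest red for Snai2 and Zeb1.

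Sunitinib tumor 6 was at the edge of the range for several of the 10 genes. Relative to the median of the other 3 sunitinib tumors, Epcam was 13.8-fold lower and Cdh1 8.26-fold lower, while Snai2 was 9.67-fold, Zeb1 3.60-fold, Snai1 2.30-fold and Vim 1.94-fold higher. Cdh2 was at 0.764, Fn1 at 0.867 and Zeb2 at 1.05 times that median. Of the 9 tested genes, 5 had tumor 6 as the highest or lowest of the 12, beside 45.1% of all tested genes, a share near that of the 9, so being an extreme there is not particular to these genes. Sunitinib tumor 12 was extreme for 42.2% of all tested genes, highest for 21.3% and lowest for 20.9%. Of the 9, it was the lowest for 4, Cdh2, Snai2, Zeb1 and Zeb2, and the highest for 0. These are 2 single tumors, and no test of either was made.

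The wider epithelial list showed which other junction genes went with Cdh1 and Epcam in that tumor. Of 27 tested epithelial genes, 12 were lowest in tumor 6 and 3 highest, where 22.6% of all tested genes were lowest there and 22.6% highest. The 12 included Dsg2, a desmosomal cadherin, at 7.49 CPM against 39.8 to 65.7 in the other 11, Lsr, a protein of tricellular junctions, at 7.74 against 73.7 to 122, and Esrp1, a splicing regulator of epithelia, at 9.51 against 81.5 to 130. The 3 that were highest there were Elf3, Ehf and Grhl2, all transcription factors of epithelia, so the list did not move as a block. Grhl2 was low throughout, at 1.35 CPM in tumor 6 against up to 1.27 CPM in the other 11. Of 12 tested other EMT transcription factors, 9 were highest in tumor 6 and 0 lowest. The 9 were Tcf3, Tcf4, Prrx2, Foxc1, Sox4, Sox9, Id1, Id2 and Id3. Of 12 tested genes that partner cadherins at adherens junctions, 4 were lowest and 2 highest. Other lists were split in tumor 6. Of 21 tested mesenchymal effector genes, 7 were highest and 5 lowest, the latter Acta2, Tagln, Mmp14, Itga5 and Cd44. Among 23 tested EMT-inducing signal genes, 7 were highest and 5 lowest, and among 14 tested other cadherins, 3 were highest and 4 lowest. The genes named here were picked after their values were seen.

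Beta-cell genes were low in the same tumor, and acinar genes were at their highest, with a sum of 46300 CPM. The summed levels of 16 genes each for macrophages, fibroblasts and endothelium were 299, 1060 and 122 CPM there against 575 to 881, 1200 to 1330 and 80.5 to 117 CPM in the other 3 sunitinib tumors. Genes of the fibroblast, pericyte and smooth muscle list did not move together. Thy1 was at 14.5 CPM in tumor 6 against 3.69 to 4.54 in the other 3 sunitinib tumors. Fbln1 was at 88.4 against 27.5 to 29.3 and Dcn at 75.6 against 29.1 to 59.4. Other fibroblast genes were not raised: Col1a1 was at 139 against 142 to 218 and Col1a2 at 175 against 197 to 273. Col3a1, Lum and Pdgfra lay inside the range of those 3 tumors. Of the 16 genes, Fbln1, Postn and Thy1 (18.8%) were highest of 12 in tumor 6 and 6 (37.5%) were lowest. Of all tested genes, 22.6% were highest and 22.6% lowest there. The 6 were Pdgfrb, Rgs5, Cspg4, Acta2, Tagln and Myh11, mostly genes of pericytes and smooth muscle. The part of any of these cell types in the values of tumor 6 was not tested.

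**Figure D4:**
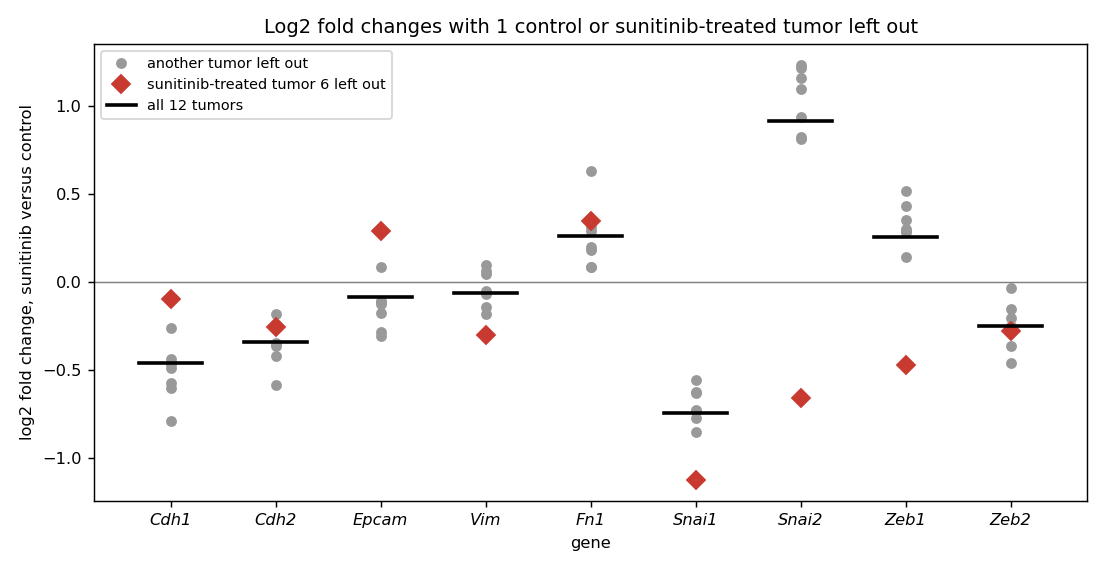
Log2 fold change of sunitinib versus control (vertical axis) for the 9 tested genes, with all 12 tumors (black line), with tumor 6 left out (diamond) and with each other control or sunitinib tumor left out (grey points). Leaving out tumor 6 moved Snai2 from 0.92 to -0.66, Zeb1 from 0.26 to -0.47 and Epcam from -0.09 to 0.29.

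The genes whose levels over the 12 tumors were most like those of 4 of the members were looked up by the root-mean-square difference of centered log2 CPM among 10354 genes. The nearest to Cdh1 were Ap1m2, Tmem154 and Dsg2, at 0.25, 0.26 and 0.29 on the log2 scale. Those nearest to Epcam were Lsr, Hapln4 and Spint1, each at 0.21. Tumor 6 holds 76.9% of the squared spread of Cdh1 and 82.4% of that of Epcam over the 12 tumors, so for these 2 the likeness rests largely on that tumor. Cdh2 was nearest to Slc26a2, Senp8 and Zfp810, each at 0.17, and Vim to Cd151, Nipsnap1 and Flywch2, at 0.26, 0.27 and 0.28. The median over all 10354 genes was 1.05 for Cdh1, 1.08 for Epcam, 0.53 for Cdh2 and 0.55 for Vim.

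The genes around the 10 gave few calls as well. For scale, 1.93% of all tested genes were called higher and 2.55% lower after sunitinib, 2.61% lower in R+S versus control and 2.63% higher in R+S versus sunitinib. Of 12 tested partners of cadherins at the adherens junction, among them the catenins, 0 were called in any comparison. Of 14 tested other cadherins, 1 was called in each comparison, Cdh5. It was at 36.3 to 83.0 CPM in control tumors, 5.04 to 11.1 after sunitinib and 15 to 17.3 after R+S, a log2 fold change of -2.92 (SE 0.28, adjusted p = 7.1e-05) in sunitinib versus control, -1.92 (SE 0.26, adjusted p = 0.00189) in R+S versus control and 1.00 (SE 0.26, adjusted p = 0.0425) in R+S versus sunitinib. The 2 calls against control held in all 21 alternatives. That of R+S versus sunitinib held in 9 of 21, with an adjusted p of 0.104 with only the 8 tumors compared, 0.0543 without sunitinib tumor 6 and up to 0.114, without R+S tumor 5. Of 16 endothelial markers, of which Cdh5 is 1, 15 and 14 were lower than in control in the first 2 comparisons.

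Of 27 tested epithelial genes, 1 was called, Prss8, a membrane serine protease of epithelia, at 1.93 to 8.60 CPM after sunitinib and 0.279 to 1.97 CPM in control tumors (log2 fold change 2.75, SE 0.67, adjusted p = 0.0387). It held in 11 of 21 alternatives, with an adjusted p of up to 0.121. The list's median log2 fold change was 0.20, 0.29 and 0.22 in the 3 comparisons. Of 21 tested mesenchymal effector genes, 0 were called higher, and 2 were called lower after sunitinib and 3 after R+S. The log2 fold change was positive for 14 of the 21 after sunitinib and for 7 after R+S, called or not. Sparc, a matrix glycoprotein, fell by 1.03 (SE 0.23, adjusted p = 0.0277) after sunitinib and by 1.34 (SE 0.23, adjusted p = 0.00823) after R+S on the log2 scale, and Itga5, the fibronectin-binding integrin subunit, fell by 1.2 (SE 0.21, adjusted p = 0.00514) and 1.00 (SE 0.21, adjusted p = 0.0191). S100a4 fell by 1.84 (SE 0.33, adjusted p = 0.00858) after R+S. The calls of Sparc after sunitinib and of Itga5 after R+S each held in 16 of 21 alternatives, with adjusted p of up to 0.127 and 0.0795, and the other 3 in all 21. The list's medians were 0.15, -0.37 and -0.54.

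Of 12 tested other EMT transcription factors, Sox9 alone was called, in sunitinib versus control, at 0.385 to 9.51 CPM, with tumor 6 the highest, against 0.0507 to 0.471 CPM (log2 fold change 3.81, SE 0.85, adjusted p = 0.025). Without tumor 6 it was 2.68 (adjusted p = 0.0317), and the call held in 15 of 20 alternatives, with an adjusted p of 0.107 with only the 8 tumors compared. Sox9 is also a duct-cell gene and 1 of the 4 of 11 duct markers called higher in the same comparison. The duct list summed to 434 to 736 CPM after sunitinib and 406 to 532 CPM in control tumors. Krt7 alone was at 38.1 to 454 and 364 to 479 CPM in the same order, so the sum hides the other genes. The list's median log2 fold change was 2.10, with 10 of 11 positive. In tumor 6, 7 of the 11 were highest of 12, beside 22.6% of all tested genes. The part of duct cells in the values of Sox9 was not tested. Of 23 tested EMT-inducing signal genes, 4 were called lower after sunitinib. These were Pdgfb, a platelet-derived growth factor, by 1.56 (SE 0.20), Tgfbr2, a TGF-beta receptor, by 1.2 (SE 0.20), Pdgfrb, a pericyte receptor and a sunitinib target, by 1.19 (SE 0.25), and Axl, a receptor tyrosine kinase, by 1.03 (SE 0.24) on the log2 scale. After R+S Pdgfb fell by 1.08 (SE 0.20, adjusted p = 0.0111), and in R+S versus sunitinib Smad4, the shared mediator of TGF-beta and BMP signals, was higher by 0.53 (SE 0.12, adjusted p = 0.0295). The Smad4 call held in 15 of 21 alternatives, with an adjusted p of 0.103 with only the 8 tumors compared and 0.101 without R+S tumor 5. Pdgfb and Tgfbr2 after sunitinib held in all 21, Pdgfrb and Axl in 18 and 15, and Pdgfb after R+S in 19. Pdgfb, Tgfbr2, Sparc and Itga5 are also expressed by endothelial cells, whose markers were lower in both treated groups, and their part in these falls was not tested.

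Several of these calls of the wider lists ended on leaving out 1 tumor. Without control tumor 3, the adjusted p was 0.109 for Axl and for Prss8, 0.0853 for Sparc, 0.0747 for Sox9 and 0.0668 for Pdgfrb in sunitinib versus control, 0.0795 for Itga5 and 0.0507 for Pdgfb in R+S versus control, and 0.0546 for Cdh5 and 0.0503 for Smad4 in R+S versus sunitinib. Leaving out control tumor 1, 2 or 4 ended the call of 1, 5 and 5 of these 9 respectively, a sunitinib tumor (5, 6, 8 or 12) that of 1, 1, 2 and 3, and an R+S tumor (4, 5, 7 or 10) that of 3, 4, 5 and 3.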

How the data were processed

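RNA-seq had been performed on 12 PanNETs. The authors deposited, per tumor, raw counts of reads on 38924 Ensembl genes, whole numbers without normalization. Per the submitters' processing notes, cutadapt 1.2.1, TopHat2 2.0.9, HTSeq 0.5.4p3 and GRCm38 were used. Their annotation release is not given in the sources used here. The closing lines of each table, which name no gene, were left out. Reads in no gene or several genes came to 12.1% to 19.5% of those plus the counted reads. Reads aligning to several places were not counted.

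Symbols, positions and exon lengths came from GENCODE M21 (37607 genes matched), and promoters from RefSeq. The promoters of Epcam, Vim, Snai1, Zeb2 and Twist1 were read. Those of Cdh2 and Zeb1, on chromosome 18, were left out of the reading, and Cdh1, Fn1 and Snai2 had no entry. Totals of 31872342 to 44215054 reads per tumor leave genes with few reads imprecise, and intervals cover only the spread between these tumors.

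Counts were normalized by TMM (factors 0.959 to 1.06) and tested with edgeR 4.0.16's quasi-likelihood F-test (R 4.3.3, limma 3.58.1), robust, with 12 tumors in 1 fit. Genes were kept by filterByExpr (minimum count 10, minimum total 15), leaving 16645. P-values were adjusted by Benjamini-Hochberg within each comparison. The SE is the absolute log2 fold change divided by the square root of F. Intervals of 95% use the fit's own degrees of freedom. CPM values use TMM, and log2 CPM has a prior count of 2. The exact permutation test of log2 CPM is two-sided over 70 arrangements and is not adjusted. Alternatives were DESeq2 1.42.0, other normalizations and filters, fewer tumors, summed prefixes and each tumor left out. Summing by prefix joined sunitinib tumors 5, 6 and 8, and R+S tumors 5 and 7. The control tumors stayed separate although they share a prefix.

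The members and lists were chosen with earlier results of these data known. Named genes are all members and, per list, at most 4 called genes with the largest change. Replicates are tumors, and nothing says that they came from separate mice.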

Additional observations from a re-analysis of the deposited data

Results flagged for a closer look

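Among 27 groups of 4 tumors examined gene by gene, 2 held a tumor whose distance to its nearest neighbor took up most of the range of its group, and chance flags about 1 in 20 such groups. Epcam was at 10.8 CPM in sunitinib tumor 6, with a gap of 0.898 of the range, past the critical value of Dixon's test for 4 samples. Zeb1 was at 36 CPM in control tumor 2, with a gap of 0.91, while the other 3 control tumors had 50 to 51.7 CPM. Leaving out control tumor 2 turned the Zeb1 difference of R+S versus control from 0.07 to -0.04 on the log2 scale, with an adjusted p of 0.973.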

How the results depend on the processing

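No paired analysis was made, because the labels give no pairing of tumors between groups. Over all genes, the count past the threshold was 745 in sunitinib versus control, 693 in R+S versus control and 1200 in R+S versus sunitinib. It became 1526, 1665 and 2970 with DESeq2, and 380, 2557 and 3 with only the 8 tumors compared. Without a filter on low counts R+S versus sunitinib had 501, and with at least 10 reads in every tumor sunitinib versus control had 408. Summing by prefix, used below, joined only treated tumors. It kept the control tumors apart, so it cannot show what a mouse shared by the control tumors would do to the p-values. Leaving out 1 tumor gave 440 to 902, 292 to 1627 and 0 to 2861, with the 0 on leaving out R+S tumor 5, and 0 to 1 of the members in each comparison. The member counts moved from 0 to 1 through Snai1 in R+S versus control, with adjusted p of 0.00355 (DESeq2), 0.047 (RLE), 0.0443 (upper quartile), 0.0481 (library size), 0.0457 (acinar genes left out of the scaling), 0.042 (at least 10 reads), 0.00822 (8 tumors) and 0.035 (prefixes summed), and without sunitinib tumor 6, 8 or 12 (0.00986, 0.0456 and 0.0397), through Snai1 in sunitinib versus control without tumor 6 (0.0359), and through Cdh2 (0.0264 with DESeq2, 0.0358 without sunitinib tumor 8) and Twist1 (0.0451 without sunitinib tumor 5) in R+S versus sunitinib.

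Directions that turned were all of differences that were not called. With summed prefixes, the log2 fold change of sunitinib versus control became 0.127 for Epcam, 0.011 for Vim and -0.088 for Zeb1, and that of R+S versus sunitinib 0.122 for Zeb1. Leaving out 1 tumor, sunitinib versus control ran from -0.307 to 0.292 for Epcam, -0.301 to 0.099 for Vim, -0.66 to 1.235 for Snai2, -0.472 to 0.516 for Zeb1 and -0.381 to 0.094 for Twist1. R+S versus control ran from -0.022 to 0.525 for Fn1, -0.197 to 0.5 for Snai2 and -0.042 to 0.115 for Zeb1, and R+S versus sunitinib from -0.194 to 0.069 for Fn1, -1.113 to 0.937 for Snai2 and -0.448 to 0.541 for Zeb1. Of 600 alternative values of single genes, 565 kept direction and call. The causes were not tested. Depth limits Twist1 and, less so, Snai1.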
